A study of Mus musculus with 12 samples.

Results

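The 10 genes described here are 9 chemokine ligands, *Cxcl1*, *Cxcl2*, *Cxcl5*, *Cxcl10*, *Cxcl11*, *Cxcl12*, *Cxcl14*, *Cxcl16* and *Cx3cl1*, and the receptor *Cxcr6*. They were found by their symbols among the spots of a whole-genome mouse microarray that were not controls, which gave 13 probes, and the array names 28786 genes in all. The cells were C57MG, a line of mouse mammary epithelial cells, kept as monolayers in DMEM without serum during the treatment. They received recombinant human Rspo2 at 100 ng/ml, recombinant mouse Wnt3a at 100 ng/ml, both proteins, or bovine serum albumin (BSA) as the vehicle, for 24 h. Each of the 4 groups had 3 monolayers, and each monolayer gave RNA for 1 of the 12 arrays. All groups share the cell line, the medium and the absence of serum, so the data describe a single line in culture, and no cells other than C57MG were added. The comparisons ask how each protein alone, and Rspo2 added to Wnt3a, altered the expression of these genes.

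Chemokines are small secreted proteins that direct the movement of cells that carry the matching receptor. In CXC chemokines a single residue separates the first cysteines, whereas in the CX3C class the gap is wider. Cxcl16 and Cx3cl1 are unusual in that they are made as membrane proteins with a chemokine head on a stalk, from which proteases release a soluble form. Cxcr6 is the receptor of Cxcl16 and is best known on T cells and natural killer cells. Wnt3a can act through β-catenin, and R-spondins raise the response of cells to Wnt proteins.

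Signal was expressed on the log2 scale after subtracting each array's 75th percentile, so a value of 0 is the signal at that percentile and a difference of 1 is a factor of 2 (2-fold). A probe counts as measured on an array where the scanner software marked it as well above background, and a probe was tested where this held on all 3 arrays of at least 1 group. Signals of different probes are not comparable as levels of mRNA, and only the changes of each probe are compared. Arrays of whole cultures cannot tell fewer cells that express a gene from less of its mRNA per cell. The number of arrays and the signal over background limit the precision. The 75th percentile of the intensities lay between 774 and 1146 on the 12 arrays, and 51.3% to 64.2% of the probes were well above background. The highest of these shares was that of BSA replicate 1, and the other 11 arrays had at most 61.8%.

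The 12 arrays lay on 3 slides, each scanned in a run of its own. All BSA arrays were on slide 1 together with the first Rspo2 array. The remaining Rspo2 arrays shared slide 2 with Wnt3a replicates 1 and 2. The last Wnt3a array was on slide 3, next to the 3 arrays of both proteins. BSA therefore shared no slide with Wnt3a or with both proteins. Differences within a slide are given below for the brightest probe of each tested gene, where it was measured.

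Of the 10 genes, 5 could be tested, with 7 probes, namely *Cxcr6*, *Cxcl5*, *Cxcl10*, *Cxcl12* and *Cx3cl1*. The other 5 stayed at or near background in these cells. *Cxcl1* and *Cxcl2*, which attract neutrophils, and *Cxcl11*, a ligand of Cxcr3, were above background on 0 of 12 arrays. The RefSeq annotation lists *Cxcl11* of this mouse genome as a transcribed pseudogene. *Cxcl14*, a chemokine of epithelia, was above background on 1 array, BSA replicate 1, at an intensity of 48.1. Over the 12 arrays, intensities were 3.18 to 21.3 for *Cxcl1*, 4.23 to 14.9 for *Cxcl2* and 3.36 to 25.6 for *Cxcl11*. *Cxcl16* is described with its receptor below. For these genes no fold change is given.

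**Figure D1:**
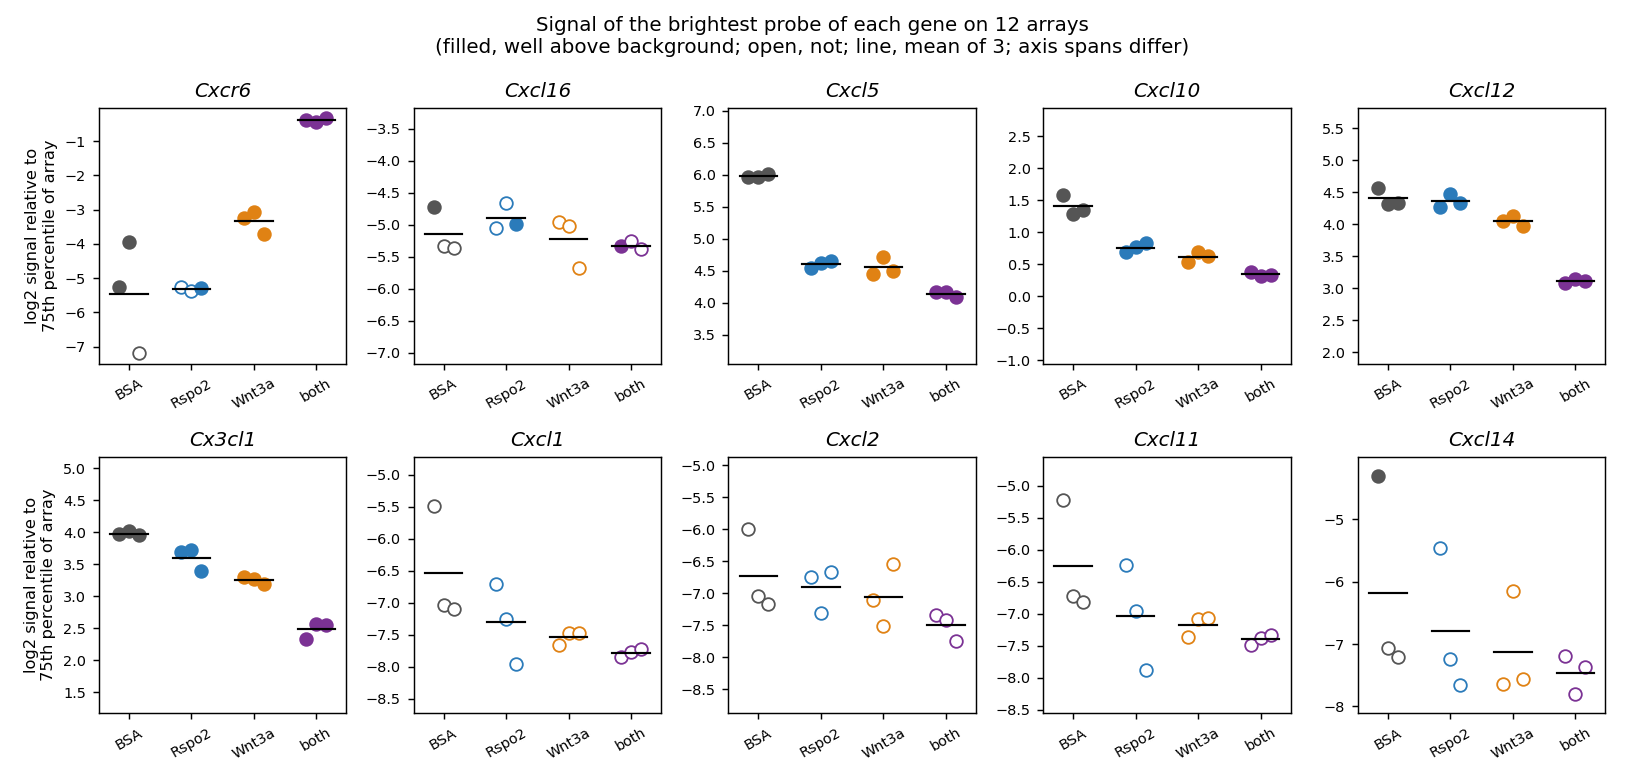
The vertical axes give log2 signal less the array's 75th percentile for the brightest probe of each gene, and each point is 1 of 3 arrays of a group, with filled points well above background, open points not, and the line at the mean. *Cxcr6* stood highest on the 3 arrays of both proteins (-0.43 to -0.32), whereas *Cxcl5*, *Cxcl10*, *Cxcl12* and *Cx3cl1* stood lowest there.

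With Rspo2 plus Wnt3a, the measured *Cxcr6* signal was 34.1-fold higher than with BSA, where 2 of 3 arrays were above background. That fold depended on the dim BSA arrays. It was 20-fold with dim values set at the lowest signal well above background of their array. On the log2 scale the rise was 4.22 without BSA replicate 3 and 5.86 without BSA replicate 2. The 4 ligand genes that could be tested were 2.1-fold to 3.58-fold lower. The 5 genes were thus called changed, 1 higher and 4 lower, by their brightest probes, where a call required 2-fold or more together with an adjusted p below 0.05. Among all 22751 tested probes, 5.08% were called in this comparison, 1.28% as higher and 3.79% as lower. The median change of the 5 genes was -1.29 on the log2 scale, beside 0.04 for all tested probes. Both *Cxcl12* probes and both *Cx3cl1* probes were called lower, so that 7 of 7 probes were called. With scaling to the median of each array, *Cxcl10* (-0.85) and the *Cxcl12* probe A_52_P685021 (-0.87) lost their calls, and with slide as a term of the fit *Cxcr6* lost its call (adjusted p = 0.0998), so that 4 genes were called in each case. Probes of one gene share that gene and are not separate evidence.

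*Cxcr6* was dim without Wnt3a. In BSA its log2 signal was -5.26, -3.93 and -7.20 in replicates 1 to 3, with intensities of 24.9, 75.2 and 7.36, and 2 of the 3 arrays were above background. With Rspo2 it was -5.26, -5.39 and -5.29, and 1 array was above background. The BSA values spread around the Rspo2 values, so these groups overlapped.

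With Wnt3a the *Cxcr6* signal was -3.23, -3.08 and -3.71, above background on 3 of 3 arrays and higher than on each BSA and Rspo2 array. With both proteins it was -0.37, -0.43 and -0.32, with intensities of 728, 713 and 850.2. No array of another group came near this level. The order of the group means was BSA (-5.46 ± 1.64, SD, n = 3), Rspo2 (-5.31 ± 0.06, n = 3), Wnt3a (-3.34 ± 0.33, n = 3) and both (-0.37 ± 0.06, n = 3), and the first pair in that order did not differ beyond their spread.

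*Cxcr6* was tested because all arrays with Wnt3a were above background, and it would not have passed the detection filter from BSA or Rspo2 alone, so the p-values of its rise are conditional on that. In the fit of all 12 arrays, *Cxcr6* with both proteins was 5.09 ± 0.59 (SE) above BSA on the log2 scale, with an adjusted p of 0.000119. With Wnt3a alone it was 2.12 above BSA (95% interval 0.81 to 3.43, adjusted p = 0.0206), a 4.35-fold rise. Adding Rspo2 to Wnt3a raised it by a further 2.97 (1.66 to 4.28, adjusted p = 0.0179), or 7.83-fold. Rspo2 alone gave 0.15 (-1.16 to 1.46, adjusted p = 0.882), an interval that still allows a change of more than 2-fold either way. *Cxcr6* was 1.97 higher with Wnt3a than with Rspo2 (0.66 to 3.28), which did not pass the adjustment (adjusted p = 0.153), and its level with Rspo2 was measured above background on 1 of 3 arrays.

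The size of these changes depended on the dim arrays. With dim values set at the lowest signal well above background of their array, an alternative chosen after seeing the data, the rise with both proteins was 4.32 (20-fold, adjusted p = 2.55e-06), that with Wnt3a was 1.35 (adjusted p = 0.00704), Rspo2 alone gave -0.27 (adjusted p = 0.561), and Wnt3a against Rspo2 gave 1.62 and was called (adjusted p = 0.025). Without BSA replicate 3, the lowest, *Cxcr6* rose by 4.22 with both proteins (adjusted p = 2.2e-05) and by 1.25 with Wnt3a (adjusted p = 0.0212). Without BSA replicate 2, the highest, the same changes were 5.86 and 2.88. On slide 2, where 2 arrays of each group lay side by side, *Cxcr6* read -3.23 and -3.08 with Wnt3a and -5.39 and -5.29 with Rspo2. Of these Rspo2 arrays 1 was above background, so no difference is given for this slide. On slide 3 it was 3.34 higher on the 3 arrays of both proteins than on Wnt3a replicate 3. No difference on slide 1 is given, since *Cxcr6* was not above background on its Rspo2 array. With slide as a term of the fit, the change with both proteins was 5.71 with an adjusted p of 0.0998, so that call was lost, as were those with Wnt3a (2.38, adjusted p = 0.422) and with Rspo2 added to Wnt3a (3.34, adjusted p = 0.171), whereas each of the 4 ligand genes kept its call with both proteins. The call with Wnt3a alone was also lost without Wnt3a replicate 2 (1.99, adjusted p = 0.0689), and that of Rspo2 added to Wnt3a without Wnt3a replicate 1 or 2 or any 1 array of both proteins (adjusted p from 0.0514 to 0.067). With a background model in place of the scanner's subtraction (normexp), the change with both proteins was 2.72 and kept its call (adjusted p = 0.0399), the change with Wnt3a was 0.48 (adjusted p = 0.794), and that of Rspo2 added to Wnt3a lost its call (2.24, adjusted p = 0.472).

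*Cxcl16*, the ligand of Cxcr6, stayed near background in every group. Its brighter probe was above background on 3 of 12 arrays, 1 each of BSA, Rspo2 and both proteins, and the dimmer probe on 2, 1 of BSA and 1 of both. The brighter probe read -4.72, -5.33 and -5.37 in BSA and -5.05, -4.65 and -4.99 with Rspo2. It read -4.96, -5.02 and -5.68 with Wnt3a and -5.34, -5.26 and -5.38 with both proteins. Rspo2 lay above both proteins without overlap, every other pair of groups overlapped, and intensities ran from 15.7 to 36.0. A transcript present at a low level may not be seen at this signal, so the values do not show that *Cxcl16* mRNA is absent.

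Receptor and ligand are shown side by side by array. A change of *Cxcl16* could not be measured at this signal, and no difference between the 2 probes is given, since *Cxcl16* was above background on at most 1 of 3 arrays in any group.

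**Figure D2:**
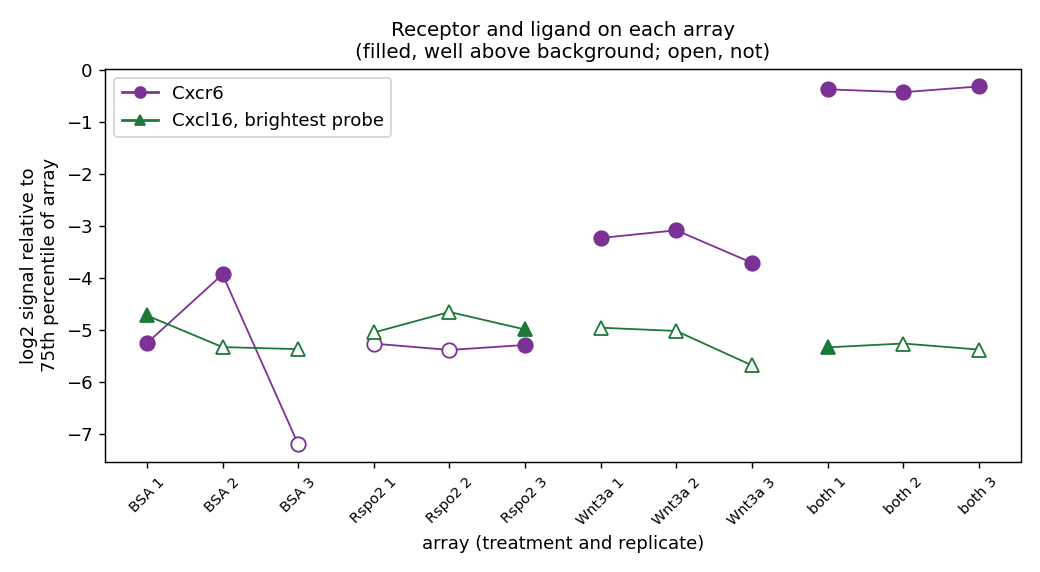
Log2 signal less the array's 75th percentile for *Cxcr6* (circles) and the brighter *Cxcl16* probe (triangles) on each of the 12 arrays, filled where well above background. The *Cxcr6* signal was between -3.71 and -3.08 with Wnt3a and between -0.43 and -0.32 with both proteins, while *Cxcl16* stayed between -5.68 and -4.65 throughout, and heights of the 2 probes are not comparable as amounts.

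The start of the *Cxcr6* gene is shown because it was the only one of the 5 tested genes that rose, and because β-catenin can act on genes through TCF/LEF proteins, among other partners. The RefSeq promoter table (GRCm38.p6) held 7 of the 10 genes. The sequence below is chr9:123806327-123806476, plus strand, which are the 150 bases before the start of the gene, with a match to the TCF/LEF core in capitals.
Cxcr6: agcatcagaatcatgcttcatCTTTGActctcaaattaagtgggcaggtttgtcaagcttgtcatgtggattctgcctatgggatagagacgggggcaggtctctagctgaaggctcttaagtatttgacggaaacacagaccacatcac
The letters searched on both strands of the 250 bases before the start were CTTTGA, and 15.8% of 27025 genes hold them there, so the match is a description and not a site shown to be used. Its first base was at position -129, counting the last base before the start as -1. *Cxcl12*, which fell, held the same letters on the other strand, and the other 5 genes held none. *Cxcl10* and *Cxcl11* lie within the span of *Art3* on chromosome 5, and the *Cxcr6* gene lies within the span of *Fyco1* on chromosome 9. *Fyco1*, a gene of autophagosome transport, changed by -0.07 with both proteins (adjusted p = 0.752). Of the 7 neighbouring genes listed, 5 were tested and 0 were called in any of the 6 comparisons. Of all tested probes, 0.202% to 5.08% were called in these comparisons, so a count of 0 does not set the neighbours apart.

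*Cxcl5*, a neutrophil-attracting ligand of Cxcr2, responded to either protein alone. Its signal was 5.96, 5.97 and 6.01 in BSA, 4.55, 4.61 and 4.65 with Rspo2, 4.45, 4.72 and 4.50 with Wnt3a, and 4.17, 4.16 and 4.09 with both. The 3 BSA arrays stood above the other 9, those of both proteins stood below them, and Rspo2 and Wnt3a overlapped. In intensity, the group medians were 69700, 21520, 19630 and 17150.

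*Cxcl5* fell with each treatment, and the change was -1.38 with Rspo2 (SE 0.08, adjusted p = 2.52e-05) and -1.42 with Wnt3a (adjusted p = 8.29e-06). By the methods' t-test after adjustment, the change with Rspo2 lost its call (adjusted p = 0.119). That test called 2 of all 22751 tested probes with Rspo2, where limma called 164. With normexp, where 3 probes were called with Rspo2, *Cxcl5* kept its call (-1.51, adjusted p = 0.0392). The combination gave -1.84 (adjusted p = 1.77e-07). It was the only one of the 5 tested genes called with Rspo2 alone, a comparison in which 0.721% of all tested probes were called, 0.62% as lower and 0.101% as higher. No difference between Wnt3a and Rspo2 was detected (-0.05, 95% interval -0.23 to 0.13). The fall with both was smaller than the sum of the separate falls, by 0.96 (0.71 to 1.21, adjusted p = 0.00146), which was just under 2-fold and hence not called, and with normexp its adjusted p was 0.397. On slide 1, Rspo2 replicate 1 differed by -1.44 from the mean of the 3 BSA arrays, close to the change over all slides. The differences were -0.05 between Wnt3a and Rspo2 on slide 2 and -0.36 between both proteins and Wnt3a on slide 3.

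*Cxcl10*, an interferon-induced ligand of Cxcr3, fell in smaller steps. Its signal was 1.59, 1.29 and 1.35 in BSA, 0.69, 0.76 and 0.83 with Rspo2, 0.53, 0.70 and 0.64 with Wnt3a, and 0.38, 0.31 and 0.33 with both. On this scale only Rspo2 and Wnt3a overlapped. In intensity before scaling, Wnt3a (1253 to 1301) and both proteins (1191 to 1329) overlapped as well. Adding Rspo2 to Wnt3a changed *Cxcl10* by -0.28, which did not pass the adjustment (adjusted p = 0.123). *Cxcl10* changed by -0.65 with Rspo2 (adjusted p = 0.00451) and by -0.79 with Wnt3a (adjusted p = 0.000343), both under 2-fold and so not called. The change with Rspo2 did not pass with normexp (adjusted p = 0.228) or slide as a term (adjusted p = 0.0664), and that with Wnt3a did not pass with slide as a term (adjusted p = 0.0626) and was -0.46 with median scaling. With both proteins it fell by 1.07 (SE 0.09, adjusted p = 1.23e-05), or 2.1-fold. That value lay near the 2-fold limit, and it was -0.85 with scaling to the median of each array and -0.98 both with normexp and without BSA replicate 1, with no call in these 3 cases. Within slides *Cxcl10* differed by -0.72 between Rspo2 and BSA, -0.18 between Wnt3a and Rspo2 and -0.30 between both proteins and Wnt3a. With scaling to the median, the median change of all probes was 0.26, beside 0.04 with the 75th percentile.

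The 250 bases before the start of *Cxcl10* are shown because they hold the letters of both an interferon-stimulated response element (GAAA, any 2 bases, GAAA) and an NF-κB site (GGGA, any 4 bases, CC). The region is chr5:92348890-92349139 (GRCm38.p6, minus strand), written 5′ to 3′ toward the gene, with the matches in capitals.
Cxcl10: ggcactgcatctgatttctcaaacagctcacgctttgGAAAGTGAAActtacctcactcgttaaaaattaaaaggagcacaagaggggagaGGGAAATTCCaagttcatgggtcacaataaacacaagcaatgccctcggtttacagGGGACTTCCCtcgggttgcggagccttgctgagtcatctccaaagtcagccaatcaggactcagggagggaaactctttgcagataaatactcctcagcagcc
The interferon element began at position -213 and the NF-κB letters at -159 and -103. At -103 the searched pattern matched on both strands. Of all promoters in the table, 3.46% hold the first motif and 19.7% the other. *Cxcl14* also held the interferon element, and *Cxcl1* and *Cxcl2* held the NF-κB letters although their mRNA was not above background in these cells. *Cxcl12*, *Cx3cl1* and *Cxcr6* held neither.

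*Cxcl12*, the ligand of Cxcr4 and of the scavenger receptor Ackr3, was called with the combination and with neither protein alone. The brighter of its 2 probes, A_51_P172502, read 4.57, 4.32 and 4.33 in BSA and 4.27, 4.47 and 4.33 with Rspo2. It read 4.05, 4.13 and 3.97 with Wnt3a and 3.08, 3.15 and 3.12 with both proteins. BSA and Rspo2 overlapped, the Wnt3a arrays lay below them, and both proteins stood apart. The other probe, A_52_P685021, gave group means of 2.11, 2.37, 1.93 and 1.02 in the same order of treatments.

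*Cxcl12* changed by -0.05 with Rspo2 (adjusted p = 0.726) and by -0.36 with Wnt3a (adjusted p = 0.0128, under 2-fold). The latter was -0.031 with median scaling (adjusted p = 0.858) and did not pass with normexp (adjusted p = 0.305) or slide as a term (adjusted p = 0.283). With both it fell by 1.29 by the brighter probe (SE 0.09, adjusted p = 3.25e-06) and changed by -1.09 by the other (adjusted p = 2.3e-05). The interaction, computed by taking the single-protein changes away from the combined change, was -0.88 by the brighter probe (adjusted p = 0.00396) and -1.18 by the other (adjusted p = 0.00151), and the second was called. With normexp the values were -0.56 and -0.91, with adjusted p of 0.745 and 0.65, and with slide as a term the brighter probe had an adjusted p of 0.126. Adding Rspo2 to Wnt3a changed the brighter probe by -0.93 (adjusted p = 0.000193), just under 2-fold. That difference was called with median scaling (-1.04, adjusted p = 0.000458). It did not pass with normexp (-0.85, adjusted p = 0.077) or by the methods' t-test after adjustment (adjusted p = 0.139). On slide 3 alone this difference was -0.85, with 3 arrays against 1, and the brighter probe differed by -0.14 between Rspo2 and BSA on slide 1 and by -0.31 between Wnt3a and Rspo2 on slide 2. With Rspo2 alone the probes differed in sign, at -0.05 and 0.27, and neither passed the adjustment.

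*Cx3cl1*, also called fractalkine, is the ligand of Cx3cr1, and it was lowest with both proteins. Its brighter probe, A_51_P196925, read 3.97, 4.02 and 3.96 in BSA and 3.69, 3.72 and 3.39 with Rspo2. It read 3.30, 3.28 and 3.19 with Wnt3a and 2.34, 2.57 and 2.55 with both. No 2 groups overlapped. The dimmer probe, A_51_P205129, had group means of -1.66, -2.11, -3.04 and -3.47, in the same order.

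*Cx3cl1* fell with both proteins, with a change of -1.50 by the brighter probe (SE 0.10, adjusted p = 2.36e-06) and -1.81 by the dimmer (adjusted p = 1.09e-05). With Wnt3a the brighter probe changed by -0.73 (adjusted p = 0.000946), which was under 2-fold and did not pass with median scaling (-0.40, adjusted p = 0.0506), normexp (adjusted p = 0.106) or slide as a term (adjusted p = 0.246), whereas the dimmer changed by -1.38 and was called (adjusted p = 0.000262), so the 2 probes disagree on this call. The call of the dimmer probe was lost with normexp (-0.96, adjusted p = 0.135), with slide as a term (-1.28, adjusted p = 0.0887) and by the methods' t-test after adjustment (adjusted p = 0.0524), and kept by that test without adjustment. With Rspo2 the changes were -0.38 (adjusted p = 0.0313) and -0.45 (adjusted p = 0.0616), and the first did not pass with median scaling (-0.22, adjusted p = 0.354), normexp (adjusted p = 0.425) or slide as a term (adjusted p = 0.348). The interaction was -0.39 (adjusted p = 0.1) and 0.01 (adjusted p = 0.982), so no departure from the sum of the separate changes was detected for this gene. The brighter probe differed by -0.29 between Rspo2 and BSA on slide 1, by -0.27 between Wnt3a and Rspo2 on slide 2, and by -0.71 between both proteins and Wnt3a replicate 3 on slide 3. The dimmer differed by -0.33, -0.95 and -0.59. Over all slides, adding Rspo2 to Wnt3a changed the brighter probe by -0.77 (adjusted p = 0.00139), under 2-fold. The dimmer changed by -0.44 and did not pass the adjustment (adjusted p = 0.147). The change of the brighter did not pass with normexp (adjusted p = 0.117), slide as a term (adjusted p = 0.0581) or the methods' t-test after adjustment (adjusted p = 0.222). Between Wnt3a and Rspo2, the dimmer probe changed by -0.93 (adjusted p = 0.0141), under 2-fold, and the brighter by -0.35 (adjusted p = 0.136). The change of the dimmer probe did not pass with normexp (adjusted p = 0.42), slide as a term (adjusted p = 0.0662) or the methods' t-test after adjustment (adjusted p = 0.373). It was called without Rspo2 replicate 2 (-1.02, adjusted p = 0.0285) and without Wnt3a replicate 3 (-1.01, adjusted p = 0.0186).

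**Figure D3:**
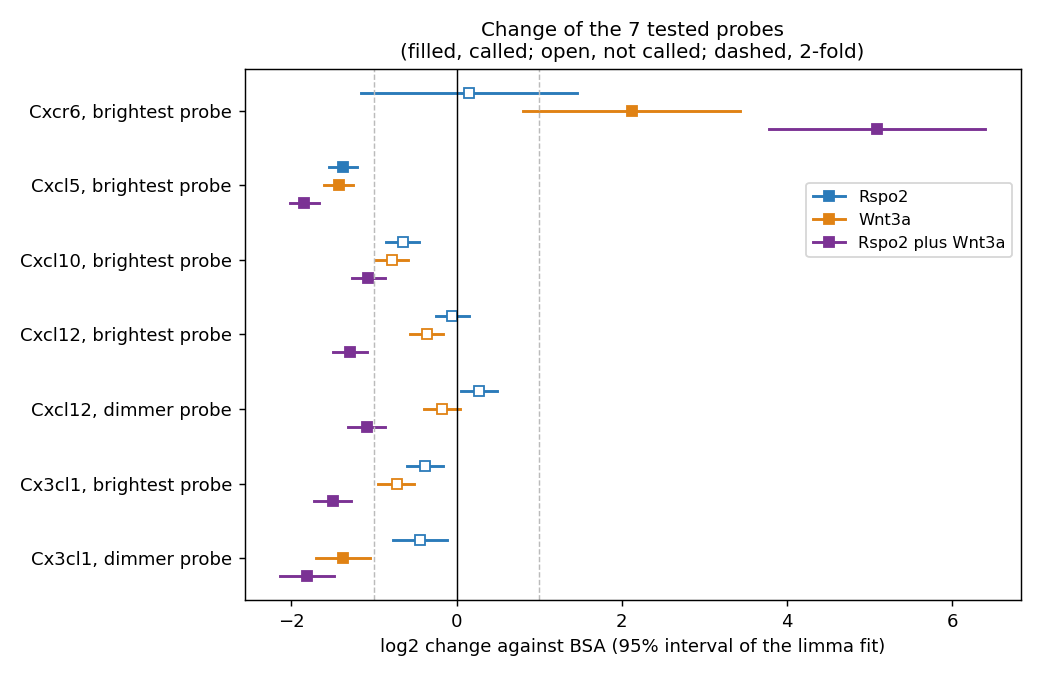
The horizontal axis gives the log2 change against BSA of the 7 tested probes with Rspo2, Wnt3a and both proteins, with the 95% interval of the fit, filled where called and with dashed lines at 2-fold. *Cxcr6* lies to the right at 2.12 and 5.09 with wide intervals, and the 6 ligand probes lie between -1.84 and -1.07 with both proteins.

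Across the comparisons, the number of the 5 genes called was 1 with Rspo2, 2 with Wnt3a (*Cxcr6* higher and *Cxcl5* lower) and 5 with both. With Wnt3a, 2.52% of all tested probes were called, 0.404% as higher and 2.11% as lower. Adding Rspo2 to Wnt3a called 1 gene, *Cxcr6*, where 0.747% of all probes were called. In Wnt3a against Rspo2 no gene was called, and the share among all probes was 0.202%. By limma at an unadjusted p under 0.05 and with no limit of fold, *Cxcl12*, *Cx3cl1* and *Cxcr6* passed in that comparison, and *Cxcl5* and *Cxcl10* did not. Of all tested probes, 14.5% passed at that looser limit. For the interaction no gene was called by its brightest probe, 1 of 7 probes was, and the share among all probes was 1.93%. The interaction of *Cxcr6* was 2.82 (95% interval 0.97 to 4.67, adjusted p = 0.0601) and was not called. *Cxcr6* passed the detection filter only through the arrays with Wnt3a, so all p-values of this interaction are conditional on that. The interaction also rests on group means near background, with 2 of 3 BSA arrays and 1 of 3 Rspo2 arrays above it. It was called without BSA replicate 3 (3.69, adjusted p = 0.0032), with dim values set at the lowest signal well above background (3.24, adjusted p = 0.00214), in the authors' value table (2.99, adjusted p = 0.0377), with trended robust variances (adjusted p = 0.0387) and with median scaling (2.55, adjusted p = 0.0432). With normexp it was 1.72 (adjusted p = 0.904) and with slide as a term 3.14 (adjusted p = 0.286). The comparisons with BSA share the 3 BSA arrays.

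Few other ligands and receptors of the system were measurable. Of 8 other CXC and XC ligands, *Ppbp*, a platelet chemokine, was the one tested, and it changed by -0.51 with both proteins (adjusted p = 0.0105) without a call. Of 9 other receptors, 2 were tested and 0 were called in any comparison, where 0.202% to 5.08% of all tested probes were called. The 2 tested receptors were *Ackr3*, which changed by 0.20 with both (adjusted p = 0.0472), and *Xcr1*, the receptor of Xcl1, which changed by -0.30 (adjusted p = 0.357). Apart from *Ackr3*, the receptors of the ligands that fell were at or near background, as *Cxcr3* and *Cx3cr1* were above it on 0 arrays, *Cxcr4* on 1, and *Cxcr2* on 3 of 12.

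Of 5 proteases that process chemokines, 3 were tested and 0 were called in any comparison, where 0.202% to 5.08% of all tested probes were called. *Adam10* and *Adam17*, which release the membrane-bound Cxcl16 and Cx3cl1, changed by -0.21 (adjusted p = 0.21) and -0.33 (adjusted p = 0.0221) with both proteins. Of 9 genes of receptor signalling and its control, 8 were tested, and *Rgs2*, which shortens G protein signals, was the one called. It fell by 1.01 with both (adjusted p = 1.29e-05), where 3.79% of all tested probes were called lower. Its interaction was also called (-1.07, adjusted p = 0.00104), where 1.93% of all tested probes were called. The inhibitory G protein genes *Gnai1*, *Gnai2* and *Gnai3* changed by 0.03, 0.09 and 0.19 with both proteins, with adjusted p of 0.907, 0.635 and 0.148.

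Interferon and NF-κB pathways are known regulators of chemokine genes. All 4 interferon regulators described here were tested, and 3 of them, *Stat2*, *Irf7* and *Irf9*, were called lower both with Wnt3a and with both proteins, where 2.11% and 3.79% of all tested probes were called lower. With both, the changes were -1.85 for *Irf7* (adjusted p = 9.64e-06), -1.61 for *Irf9* (adjusted p = 3.56e-07) and -1.45 for *Stat2* (adjusted p = 2.3e-05). *Irf1* changed by 0.09 (adjusted p = 0.43). The median of the 4 was -1.53 with both proteins, beside 0.04 for all probes. With Rspo2 alone 0 of the 4 were called, with a median of -0.51, where 0.721% of all tested probes were called.

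Of 7 NF-κB subunits and regulators, all tested, 1 was called, with both proteins, where 3.79% of all tested probes were called lower. *Nfkbiz*, a nuclear IκB protein, fell by 1.63 (adjusted p = 8.93e-07). *Nfkbia*, the inhibitor IκBα, changed by -0.95 (adjusted p = 0.000188), and the subunits *Nfkb1* by -0.68 (adjusted p = 0.0114), *Relb* by -0.48 (adjusted p = 0.00513), *Nfkb2* by -0.35 (adjusted p = 0.0715) and *Rela* by 0.07 (adjusted p = 0.595). The median of the 7 was -0.48 with both proteins, beside 0.04 for all probes. *Axin2*, a feedback gene of the Wnt pathway, was above background on the 3 arrays of both proteins and on no other. Against BSA its rise there was at least 9.39-fold (adjusted p = 1.14e-05), and against Wnt3a alone at least 11.8-fold (adjusted p = 0.000372). These bounds set the dim arrays at their lowest signals well above background, whereas the p-values come from the fit of the measured signals. *Axin2* passed the detection filter only through the arrays of both proteins. The bounds do not rank BSA and Wnt3a, since those lowest intensities were 21.9 to 42.4 on BSA arrays and 19.8 to 20.2 on Wnt3a arrays. The measured means, not above background, were -6.72 with BSA and -5.62 with Wnt3a.

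**Figure D4:**
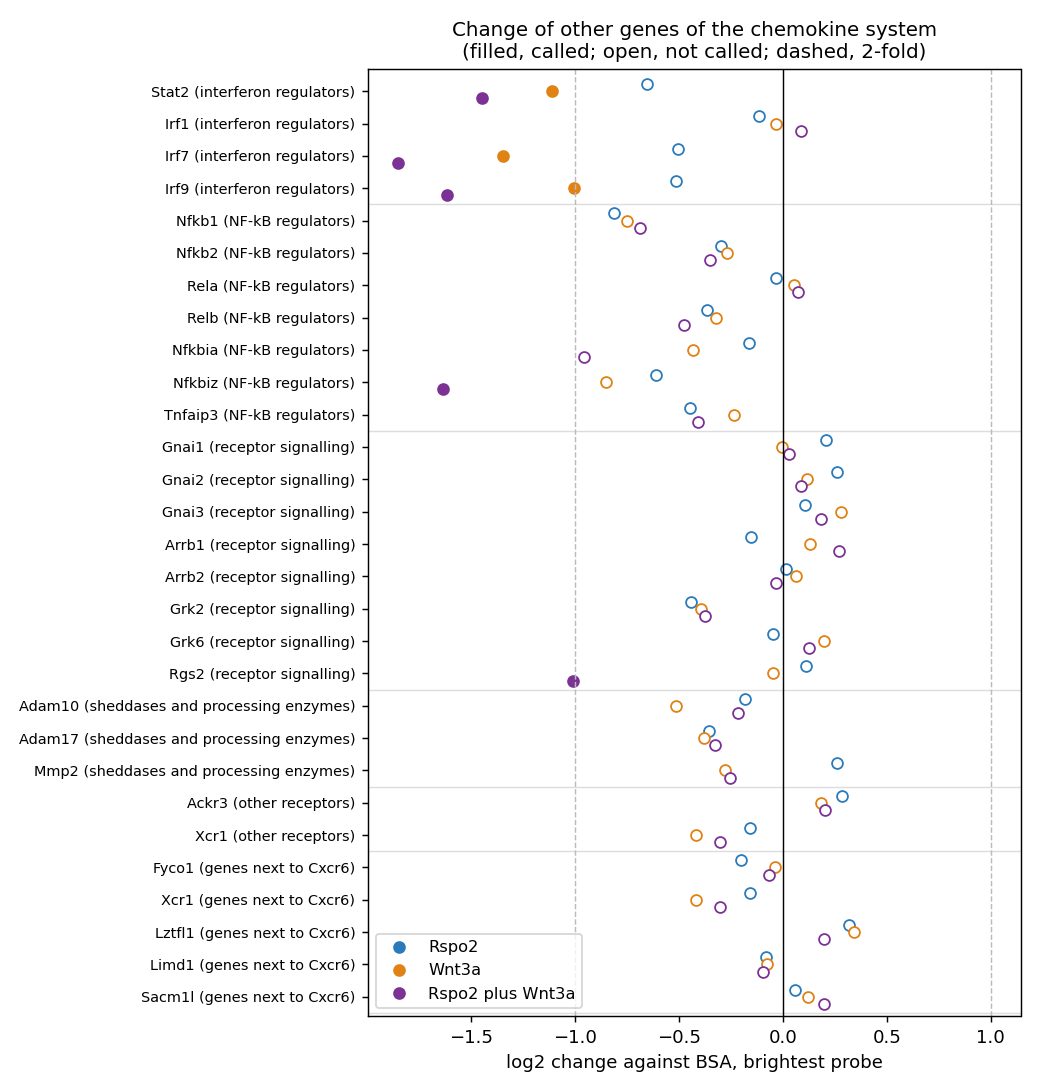
The horizontal axis gives the log2 change against BSA of the brightest probe of other genes of the chemokine system, by list, with Rspo2, Wnt3a and both proteins, filled where called and with dashed lines at 2-fold. Filled points are those of *Stat2*, *Irf7*, *Irf9*, *Nfkbiz* and *Rgs2*, all to the left, with *Irf7* the lowest at -1.85.

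The label of the cells was set against marker genes. Of 6 epithelial markers, *Cdh1* was above background on 0 of 12 arrays, *Epcam* on 2 and *Krt18* on 3, and the tested ones were *Krt14*, *Krt8* and *Krt5*. *Krt14*, a keratin of basal and myoepithelial cells, had median intensities of 11140 in BSA and 23620 with both proteins and rose by 1.24 (adjusted p = 8.28e-06), and *Krt8*, a luminal keratin, fell by 1.15 (adjusted p = 0.000366). *Krt5*, also a basal keratin, changed by 0.22 with both proteins (adjusted p = 0.387) and by -0.84 with Rspo2 (adjusted p = 0.0212), with no call against BSA. The interaction of *Krt5* was called (1.63, adjusted p = 0.0075). The 5 mesenchymal markers *Vim*, *Fn1*, *Col1a1*, *Cdh2* and *Acta2* were above background on 12 of 12 arrays. In the 6 comparisons 0 of them were called, where 0.202% to 5.08% of all tested probes were called. *Krt8* and *Krt14* were above background on 12 of 12 arrays and *Krt5* on 10.

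*Cxcr6* is usually carried by leukocytes, so their markers were read beside it. Of 9 leukocyte markers, *Ptprc*, the pan-leukocyte CD45 gene, was above background on 1 of 12 arrays, *Cd8a* on 0, *Adgre1* on 1, *Ncr1* on 2 and *Nkg7* on 3. The 4 tested markers were *Lyz2* and *Cd68*, above background on 12 arrays, *Cd3e* on 11 and *Cd4* on 5. With both proteins 0 of these 4 were called, where 5.08% of all tested probes were called. The changes were -0.14 for *Cd3e* (adjusted p = 0.776), 0.46 for *Cd4* (adjusted p = 0.42), -0.23 for *Cd68* (adjusted p = 0.172) and 0.09 for *Lyz2* (adjusted p = 0.315). *Cd4* was above background on 3 of 3 arrays of both proteins, 1 of BSA, 1 of Rspo2 and 0 of Wnt3a. *Lyz2*, the lysozyme gene of myeloid cells, changed by 0.42 with Rspo2 (adjusted p = 0.00959) and by 0.43 with Wnt3a (adjusted p = 0.00173), under 2-fold. The part of such cells in the *Cxcr6* values was not tested. *Cd3e* was called lower with Wnt3a (-1.01, adjusted p = 0.0397), where 2.11% of all tested probes were called lower. Of 4 endothelial markers, *Cdh5* alone was tested, and it changed by -0.55 with both proteins (adjusted p = 0.000259) without a call.

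Genes with the most similar pattern over the 12 arrays were listed by Pearson correlation, as a description, since all points share the arrays and the treatment groups. For *Cxcr6* these were *Map6* (r = 0.97), *Prr5l* (0.96), *Ch25h* (0.95), *Dyrk3* (0.95) and *Smim3* (0.95). For *Cxcl10* they were *Npff*, *Wdr38*, *Ifnar2*, *Lcn2* and *Tlr2*, with r from 0.97 to 0.98. For *Cxcl16*, whose signal was near background, the highest r was 0.87, with *Ing3*.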

How the data were processed

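RNA of 12 C57MG monolayers was labeled with a single dye and hybridized to Agilent 4×44K arrays. The intensities were made for the authors by a service company with Agilent Feature Extraction 9.5.3.1 (per the submitters' processing notes), which subtracted background, and were not scaled between arrays. The deposited flags of spots well above background, uneven or outlying were used as other data. The authors' deposited table of ratio values, each signal divided by the 75th percentile of its array, was an alternative. Uneven and outlier spots (1327 of 520548 values) were left out, spots of a probe averaged, put on the log2 scale and scaled to each array's 75th percentile. The 22751 probes that passed the detection filter in 1 or more groups entered limma 3.58.1 (R 4.3.3), with all 12 arrays in 1 fit of 4 group means, and p-values were adjusted over all of them (Benjamini-Hochberg). A probe was called at an adjusted p under 0.05 and 2-fold, and a gene by its brightest probe. Adjusted p-values given without a named alternative are those of this fit. The fit was also run on simulated data, and no result of that run is given here. The members and gene lists were chosen with earlier results of these data known. Some listed genes are not reported here, and list counts and medians leave them out. The genes named are the 10 members, the listed genes of the chemokine system and markers, and the 5 closest patterns of *Cxcr6*, *Cxcl16* and *Cxcl10*. Promoters came from RefSeq (GRCm38.p6). The replicates were separate monolayers of a single line. Alternatives covered background correction, scaling, filters, tests, slide, replicate number and each array left out, and a floor on dim values was added after seeing the data. Figures were drawn with matplotlib 3.10.9.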

Additional observations from a re-analysis of the deposited data

Results flagged for a closer look

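3 interactions passed the adjustment, with no limit of fold, for probes of 2 genes. That is, the effect of adding Rspo2 differed between cells with and without Wnt3a by a test of that difference in the limma fit. At the same limit, 2024 of all 22751 tested probes passed for the interaction. For *Cxcl5* the change with both proteins exceeded the sum of the separate changes by 0.96 on the log2 scale (adjusted p = 0.00146), since the sum lay below the value measured with both. For *Cxcl12* the change with both lay below the sum, by -0.88 by probe A_51_P172502 (adjusted p = 0.00396) and by -1.18 by probe A_52_P685021 (adjusted p = 0.00151). The *Cxcl5* value is positive and the *Cxcl12* values are negative although both genes were lower with both proteins than with BSA. With slide as a term of the fit the 3 values were 1.07, -0.71 and -1.35, with adjusted p of 0.0286, 0.126 and 0.0238. With the normexp background model they were 1.05, -0.56 and -0.91, and none passed (adjusted p of 0.397, 0.745 and 0.65). With normexp, 3 of all 22751 tested probes were called for the interaction, beside 438 with the scanner's subtraction. The cause was not tested.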

How the results depend on the processing

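With both proteins against BSA the count of 5 genes became 4 with median scaling, normexp and without BSA replicate 1 (*Cxcl10* lost), and with slide as a fixed term, the adjusted t-test and the filter on all 12 arrays (*Cxcr6* lost or not tested), and was 5 otherwise. No called change reversed. With Rspo2 the count of 1 became 3 with no fold requirement and 0 by the methods' t-test with adjusted p. With Wnt3a the count of 2 became 5 with no fold requirement and 1 with no filter on dim probes, normexp, the filter on all 12 arrays, only the groups compared, slide as a fixed term, and the methods' t-test with or without adjustment, and it ran from 1 to 2 when each array was left out. For Rspo2 added to Wnt3a the count of 1 became 2 with median scaling, 4 with no fold requirement, and 0 with no filter on dim probes, normexp, the filter on all 12 arrays, slide as a fixed term and the adjusted t-test, and it ran from 0 to 1 when each array was left out, with the call of *Cxcr6* lost without Wnt3a replicate 1 or 2 or any array of both proteins. For Wnt3a against Rspo2 the count of 0 became 1 with dim values set at the lowest signal well above background (chosen after seeing the data), with only the groups compared, by the unadjusted t-test and without BSA replicate 3 (0 to 1). For the interaction the count of 0 became 2 with median scaling or no fold requirement, and 1 with the percentile over probes above background, any probe of a gene, the authors' value table, trended robust variances, quantile normalization, slide as a fixed term, dim values so set, and without BSA replicate 3 or Wnt3a replicate 2 (0 to 1). The cause of these changes was not tested, other than that the filter on all 12 arrays removes *Cxcr6*. Some alternatives called fewer probes over the whole array. With Wnt3a, 573 of 22751 probes were called by the fit described above. This became 35 with normexp, 146 with slide as a fixed term and 165 with the adjusted t-test. For both proteins against BSA these numbers were 1155, 335, 500 and 692. With the methods' adjusted t-test *Cxcr6* with both proteins had an adjusted p of 0.0995. Changes that were not called took the other sign as follows. With median scaling they were 0.11 for *Cxcl12* (A_51_P172502) with Rspo2, 0.15 for *Cxcl12* (A_52_P685021) with Wnt3a, 0.116 and 0.025 for *Cxcl5* and *Cxcl10* in Wnt3a against Rspo2, and -0.27 for the interaction of *Cx3cl1* (A_51_P205129). With normexp they were 0.031 for *Cx3cl1* (A_51_P205129) with Rspo2, 0.26 for *Cxcl5* and -0.034 for *Cxcr6* in Wnt3a against Rspo2, and -0.41 for that interaction. The interaction was also -0.072 with quantile normalization, -0.264 and -0.056 with slide as a fixed term or random block, and -0.15 to 0.10 when each array was left out. *Cxcr6* with Rspo2 was -0.074 in the authors' value table and -0.27 with dim values so set, and ran from -0.72 to 0.91 when each array was left out, *Cxcl12* (A_51_P172502) with Rspo2 from -0.11 to 0.031, and *Cxcl5* in Wnt3a against Rspo2 from -0.13 to 0.006. Same-numbered arrays of different groups deviated with r from -0.41 to 0.27 in 18 pairs, 4 of them over 0.1, so the numbers were not taken as pairs. With the replicate block the counts were 1, 2, 5, 1, 0 and 0 for Rspo2, Wnt3a and both against BSA, both against Wnt3a, Wnt3a against Rspo2 and the interaction, as without it. Signal over background limits what can be said of *Cxcl16*, *Cxcr6* in BSA and Rspo2, and the 4 untested ligands.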
